A study of Mus musculus with 8 samples.

Results

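The genes described here encode the machinery that copies DNA during S phase, the stage of the cell cycle in which the genome is duplicated. They are 45 genes picked by name from 7 roles: origin recognition and licensing, the MCM2-7 helicase, helicase activation, the replication fork, nucleotide supply, E2F factors with cyclin E, and the copying of chromatin. A gene counted as a member when an array feature carried its symbol in the platform annotation. All 45 were measured, by 57 features, among 20842 named genes in all. The samples were 8 lungs of mouse pups of the C57Bl/6J background, each read on a single-colour (Cy3) Agilent expression array. Of these pups, 4 were labelled wild-type and 4 were labelled Fgf10 +/-, which means that they were heterozygous for an altered Fgf10, which encodes fibroblast growth factor 10, a signal from lung mesenchyme to lung epithelium. Both groups were kept in a chamber at 20% oxygen between postnatal days 0 and 3, so the arrays compare genotypes and not oxygen levels. The labels used here give neither the kind of Fgf10 allele nor litter or sex.

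Before S phase, the origin recognition complex (ORC) marks the sites where copying may begin, and CDC6 and CDT1 load the ring-shaped MCM2-7 helicase there. At the start of S phase the kinase CDC7 and the factors CDC45, GINS and MCM10 turn the ring into a moving helicase, and polymerases, the sliding clamp PCNA and its loader RFC follow it. E2F transcription factors switch on many of these genes late in G1, together with the enzymes that make deoxynucleotides. In the newborn lung, where airspaces are still being formed, S phase genes are read as a sign of how many cells are copying their DNA.

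The values are log2 signals on a scale that ran from 1.51 to 15.99, and 4 arrays per group limit the precision. Pairs of arrays correlated between 0.977 and 0.986. Marker genes of the labelled tissue were present, since 0 of 10 alveolar type 2, 0 of 8 alveolar type 1, 0 of 9 endothelial and 0 of 8 fibroblast markers lay below the median gene signal of 5.78. Wild-type replicate 4 stood apart. Its mean deviation from the 8-array mean was 3.06 over skeletal muscle markers, 3.69 over cartilage markers and 1.68 over fat markers, while no other array passed -0.28, -0.44 and 0.13. Fgf10 itself read 7.49, 7.81, 6.89 and 7.64 in wild-type replicates 1 to 4 and 7.55, 7.96, 7.96 and 8.33 in the replicates labelled Fgf10+/-. It was thus not lower in the latter (limma adjusted p = 0.507; exact permutation p = 0.0857), and where its features lie relative to the altered part of the gene is unknown here. Every direction below therefore rests on the labels.

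The replication genes were slightly higher as a set in the libraries labelled Fgf10+/-, with 40 of 45 at a higher mean and 5 at a lower one. Over all genes 49.8% had a higher mean. The median log2 difference of the members was 0.20, which is 1.15-fold, beside -0.00 over all 20842 genes. The members ran from -0.15 for Rfc3, a subunit of the clamp loader, to 0.58 for Mcm10, which helps to open the loaded helicase, and 4 of them exceeded 0.5. No member passed the test: with limma and Benjamini-Hochberg adjustment over all genes, 0 of 45 had an adjusted p under 0.05, beside 0 of 20842 genes in all (0%), and the smallest adjusted p among the members was 0.229. At an unadjusted p under 0.05, 7 members were higher (15.6%) and 0 lower, where 4.74% of all genes were higher and 6.29% lower, 11% in either direction. The 7 were Rrm2, Mcm5, Rrm1, Mcm10, E2f8, Ccne1 and Dut. The groups did not overlap, with the libraries labelled Fgf10+/- above, for 4 members (8.89%), Rrm2, Mcm5, Rrm1 and E2f8, where 2.99% of all genes did so. The 5 members at a lower mean were Rfc3, E2f2, Tyms, Rpa1 and Gins1, and 0 members lay wholly below wild type, where 4.4% of all genes did. When limma was run with a variance trend and robust settings, Rrm2 (adjusted p = 0.00916), Mcm5 (adjusted p = 0.0363) and Rrm1 (adjusted p = 0.0486) passed, as did 1.99% of all genes (0.71% higher). In 3 other settings 0 members passed. These were limma without genes below the 50th percentile of signal, where 2.76% of genes passed (0.892% higher), without genes below the 25th percentile, where 0.243% passed (0.0512% higher), and with array weights, where 0.0144% passed (0.0048% higher). In RNA from a whole tissue, a difference in the number of dividing cells and a difference in RNA per cell cannot be told apart.

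**Figure D1:**
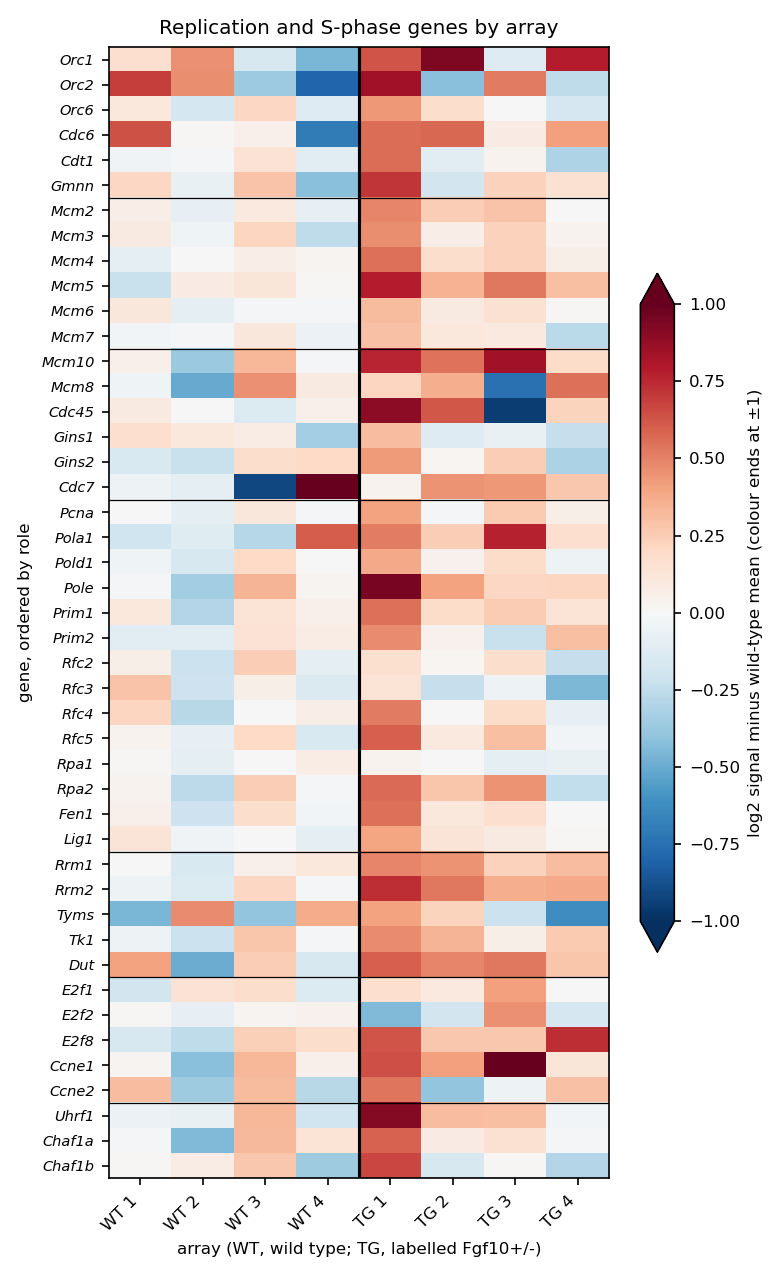
Each row is 1 of the 45 genes, grouped by role, and each column 1 array (WT, wild type; TG, labelled Fgf10+/-). Colour gives the log2 signal minus the gene's wild-type mean, and the column of replicate 1 of the libraries labelled Fgf10+/- is the reddest, with the highest value of all 8 arrays for 31 of 45 genes.

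The shift was uneven across the 4 libraries labelled Fgf10+/-. Measured from each gene's wild-type mean, the median member lay 0.52 higher in replicate 1, 0.13 higher in replicate 2, 0.21 higher in replicate 3 and 0.01 higher in replicate 4. In wild-type replicates 1 to 4 the same median was 0.01, -0.10, 0.15 and -0.02, so replicates 2 and 4 of the libraries labelled Fgf10+/- lay within the wild-type range and replicates 1 and 3 above it. Replicate 1 held the highest value of all 8 arrays for 31 members, and 35 members exceeded every wild-type array there, against 16, 19 and 8 members in replicates 2, 3 and 4. Wild-type replicates 2 and 4 held the lowest value for 17 and 11 members. Without replicate 1 of the libraries labelled Fgf10+/- the median difference was 0.09, 32 members had a higher mean and 4 were higher at an unadjusted p under 0.05, as were 5.51% of all genes. Without wild-type replicate 4, the library with the muscle and cartilage markers, the median was 0.17. The count of members higher at an unadjusted p under 0.05 was then 7, beside 5.51% of all genes. With fewer arrays, more genes of any kind do not overlap. The count of members without overlap was 8 without wild-type replicate 1 (4.15% of all genes) and 11 without wild-type replicate 3 (4.67% of all genes). It was also 11 when replicate 4 of the Fgf10+/- label was dropped (4.37% of all genes). Dropping replicate 1 of that label left 4, as with all arrays, beside 5.78% of all genes. Dropping replicate 2 of either group also left 4 (wild type 4.22%, Fgf10+/- label 4.24% of all genes). The count was 6 when wild-type replicate 4 (6.00%) or replicate 3 of the Fgf10+/- label (5.06%) was dropped.

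**Figure D2:**
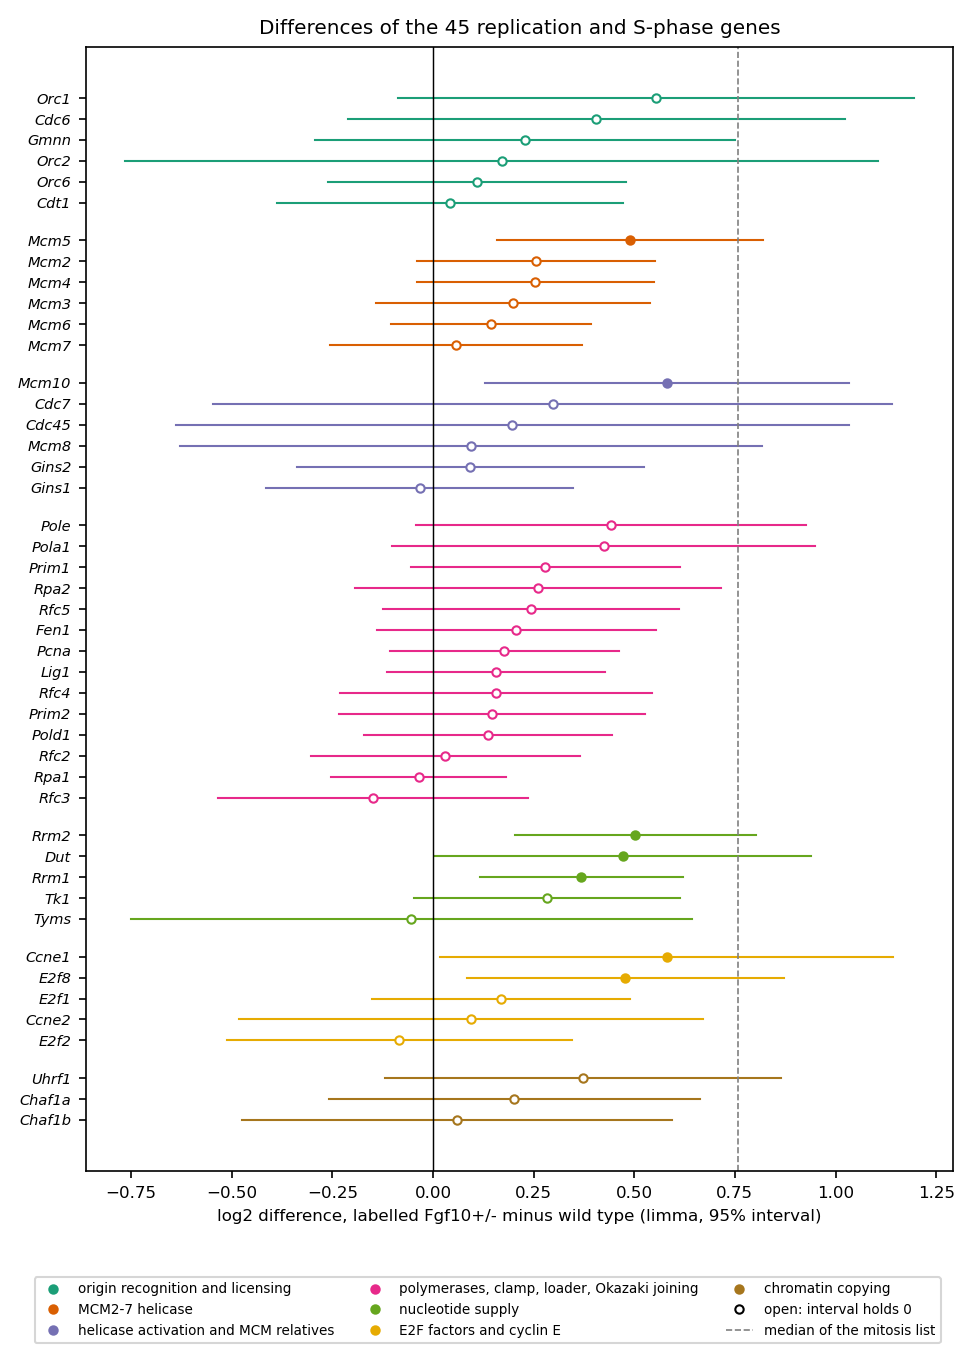
Points are the log2 differences (libraries labelled Fgf10+/- minus wild type) of the 45 genes with limma's 95% intervals, coloured by role, and the dashed line is the median of 29 mitosis genes at 0.76. The interval lies above 0 for 7 genes (filled) and holds 0 for 38 (open), and its upper end lies below the dashed line for 30.

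All origin recognition and licensing genes had a higher mean signal in the libraries labelled Fgf10+/-, with a median of 0.20 over 6 genes. Of these, 0 had an unadjusted p under 0.05, beside 11% of all genes in either direction. Orc1, the largest ORC subunit, read 2.92, 3.21, 2.60 and 2.30 in wild-type replicates 1 to 4 and 3.38, 3.69, 2.63 and 3.54 in those labelled Fgf10+/-. It was above every wild-type array in 3 of 4 libraries, but its signal lay below the median array feature of 3.47 in 6 of 8 arrays, and the difference of 0.55 had a standard error of 0.28 (adjusted p = 0.519). Cdc6, the ATPase that brings the helicase to ORC, read 6.01, 5.39, 5.43 and 4.68 in wild type and 5.94, 5.95, 5.46 and 5.79 in the other group, a difference of 0.41 (SE 0.27; adjusted p = 0.641). The ranges overlapped, and a dimmer Cdc6 feature differed the other way, by -0.65. Cdt1, the partner of CDC6 in loading, read 9.28, 9.30, 9.46 and 9.21 in wild type and 9.87, 9.20, 9.35 and 9.0 in the libraries labelled Fgf10+/-. Its highest and its lowest value thus fell in the same group, and the difference was 0.04 with a 95% interval from -0.39 to 0.47. Gmnn, which encodes geminin, the inhibitor of CDT1, differed by 0.23, and the ORC subunit genes Orc2 and Orc6 by 0.17 and 0.11.

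All 6 genes of the MCM2-7 ring, the motor that unwinds DNA, also had a higher mean, with a median of 0.23. At an unadjusted p under 0.05, 1 member, Mcm5, was higher, beside 4.74% of all genes. Mcm5 read 8.86, 9.16, 9.20 and 9.09 in wild-type replicates 1 to 4 and 9.87, 9.42, 9.60 and 9.38 in the libraries labelled Fgf10+/-. The lowest of the latter exceeded the highest wild-type value. The difference was 0.49 (SE 0.14, 95% interval from 0.16 to 0.82, n = 4 each), which is 1.40-fold (limma adjusted p = 0.268; exact permutation p = 0.0286, two-sided and the lowest possible with 70 assignments, or 0.387 adjusted over all genes). Mcm2 read 8.63, 8.48, 8.67 and 8.48 in wild type and 9.06, 8.81, 8.85 and 8.57 in the other group, so 3 of 4 libraries lay above wild type and replicate 4 lay among it (difference 0.26, adjusted p = 0.519). Mcm7 had the largest p of the ring. It read 10.50, 10.51, 10.64 and 10.47 in wild type and 10.82, 10.63, 10.63 and 10.26 in the libraries labelled Fgf10+/-, with a difference of 0.06 and a 95% interval from -0.26 to 0.37. Mcm4 differed by 0.25, Mcm3 by 0.20, with nearly the same value from its 2 features, and Mcm6 by 0.14. Subunits that work in equal numbers in 1 ring thus ran from 0.06 to 0.49, although the intervals of Mcm5 and Mcm7 overlap, and whether they differ from each other was not tested.

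Among the factors that activate the helicase, and its relative Mcm8, 5 of 6 had a higher mean, with a median of 0.15. Mcm10 had the largest difference of all 45 genes and read 7.09, 6.67, 7.37 and 7.02 in wild type and 7.79, 7.58, 7.88 and 7.22 in the libraries labelled Fgf10+/-. Replicate 4 of the latter lay inside the wild-type range and the other 3 above it, and the difference of 0.58 (SE 0.20) is 1.5-fold (limma adjusted p = 0.327). Cdc7, the kinase that fires origins, read 3.09, 3.06, 2.24 and 4.20 in wild type and 3.18, 3.59, 3.58 and 3.42 in the other group. Both the highest and the lowest Cdc7 values were wild-type, and the difference was 0.30 with a 95% interval from -0.55 to 1.14. The mean Cdc7 signal of 3.29 lay below the median array feature of 3.47. Cdc45, a core part of the moving helicase, was given in full after its values were seen. It held together in wild type, at 4.26, 4.17, 4.03 and 4.22, and spread in the libraries labelled Fgf10+/-, at 5.06, 4.79, 3.22 and 4.39 (difference 0.20, adjusted p = 0.891). Gins1, a GINS subunit, read 7.77, 7.70, 7.67 and 7.26 in wild type and 7.91, 7.47, 7.52 and 7.37 in the other group (difference -0.03, 95% interval from -0.41 to 0.35). Its partner Gins2 differed by 0.09 and Mcm8, which acts in recombination repair, by 0.09.

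The 14 genes of the fork itself had a median of 0.17, with 12 at a higher mean and 2 at a lower one. Of these, 0 had an unadjusted p under 0.05, beside 11% of all genes in either direction. Pole, the catalytic subunit of the leading-strand polymerase, read 8.74, 8.40, 9.09 and 8.78 in wild type and 9.70, 9.15, 8.96 and 8.96 in the libraries labelled Fgf10+/-. Replicates 1 and 2 lay above wild type and the other pair inside it (difference 0.44, SE 0.21, adjusted p = 0.497). Prim1, the catalytic subunit of primase, read 9.72, 9.33, 9.76 and 9.67 in wild type and 10.17, 9.80, 9.87 and 9.76 in the other group (difference 0.28, adjusted p = 0.535). Rfc2, of the clamp loader, had the largest p, at 9.09, 8.82, 9.28 and 8.95 in wild type and 9.19, 9.05, 9.21 and 8.81 in the other group (difference 0.03, 95% interval from -0.30 to 0.36).

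The 4 clamp loader subunits had differences of both signs. Rfc3 read 7.31, 6.81, 7.08 and 6.88 in wild type and 7.15, 6.79, 6.97 and 6.57 in the libraries labelled Fgf10+/-, the lowest difference of the 45 genes at -0.15 (SE 0.17, adjusted p = 0.802), while Rfc4 differed by 0.16, or by 0.58 on its second feature, and Rfc5 by 0.24. Pcna, the sliding clamp, differed by 0.18 with a 95% interval from -0.11 to 0.46. Of the polymerase genes, Pola1, which starts each new strand with primase, differed by 0.42, Pold1, of the lagging strand, by 0.14, and Prim2, the second primase subunit, by 0.15. Rpa1, the large subunit of the single-strand binding protein, had the smallest standard error of the set, 0.09, and differed by -0.04, and Rpa2 differed by 0.26. Fen1 and Lig1, which trim and join Okazaki fragments, differed by 0.21 and 0.16.

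Nucleotide supply had the highest median difference of the 7 roles, 0.37. Of these 5 genes, 4 had a higher mean and 3 were higher at an unadjusted p under 0.05, beside 4.74% of all genes. Rrm2, the regulatory subunit of ribonucleotide reductase, whose level limits deoxynucleotide synthesis in S phase, had the smallest p of the 45 genes. It read 10.12, 10.02, 10.37 and 10.15 in wild-type replicates 1 to 4 and 10.90, 10.69, 10.53 and 10.54 in the libraries labelled Fgf10+/-, so every one of the latter exceeded every wild-type array. Its means were 10.17 ± 0.15 (SD, n = 4) and 10.67 ± 0.17 (SD, n = 4), a difference of 0.50 (SE 0.13) or 1.42-fold (limma adjusted p = 0.229; exact permutation p = 0.0286). Rrm1, the catalytic partner of RRM2, read 9.75, 9.60, 9.80 and 9.86 in wild type and 10.24, 10.20, 9.98 and 10.06 in the other group. These groups did not overlap either, and the difference was 0.37 (SE 0.11) or 1.29-fold (limma adjusted p = 0.270; exact permutation p = 0.0286).

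Dut, which destroys dUTP so that uracil stays out of DNA, differed by 0.47 (adjusted p = 0.451). Its values, added after they were seen, were 8.47, 7.58, 8.32 and 7.91 in wild type and 8.67, 8.55, 8.59 and 8.34 in the libraries labelled Fgf10+/-, where 3 of 4 lay above wild type. Tk1, the S phase thymidine kinase, differed by 0.28 (adjusted p = 0.520). Tyms, thymidylate synthase, read 4.15, 5.08, 4.21 and 4.98 in wild type and 5.01, 4.83, 4.39 and 3.98 in the other group. The ranges overlapped throughout, and the difference of -0.05 had a 95% interval from -0.75 to 0.64.

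**Figure D3:**
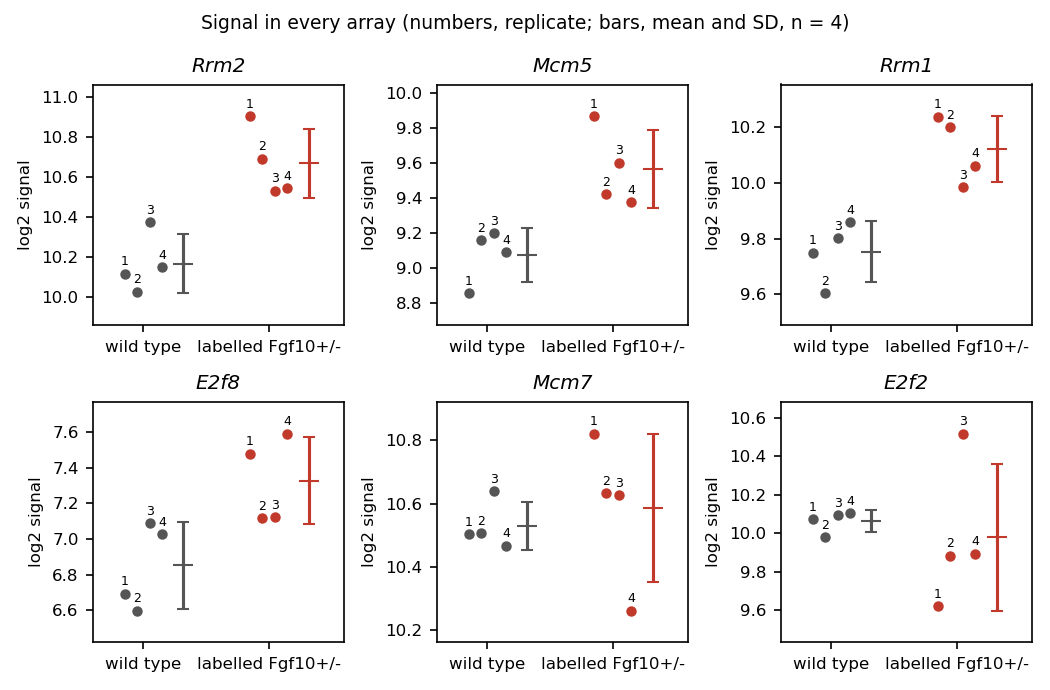
Each panel plots the log2 signal of 1 gene in every array, with replicate numbers beside the points and the mean and SD of 4 arrays as bars (each axis has its own range and does not start at 0). Rrm2, Mcm5, Rrm1 and E2f8 do not overlap between groups, Mcm7 does, and E2f2 spreads from 9.62 to 10.52 in the libraries labelled Fgf10+/-.

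Of the E2F factors and cyclin E genes, 4 of 5 had a higher mean (median 0.17). At an unadjusted p under 0.05, 2 were higher, beside 4.74% of all genes. E2f8, an atypical E2F that represses the S phase programme, read 6.69, 6.60, 7.09 and 7.03 in wild type and 7.48, 7.12, 7.12 and 7.59 in the libraries labelled Fgf10+/-. The groups were parted by a narrow gap, and the difference was 0.48 (SE 0.17; limma adjusted p = 0.353; exact permutation p = 0.0286). Ccne1, cyclin E1, which drives CDK2 at the start of S phase, read 7.48, 7.04, 7.78 and 7.51 in wild type and 8.10, 7.86, 8.60 and 7.57 in the other group. Replicate 4 lay among wild type, and the difference of 0.58 (SE 0.24; adjusted p = 0.441) was 0.05 on the dimmer of its 2 features. Its partner gene Ccne2 lay near the floor, at 3.20, 2.53, 3.21 and 2.61 in wild type and 3.42, 2.49, 2.83 and 3.18 in the other group (difference 0.09, 95% interval from -0.48 to 0.67).

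The activating factors E2f1 and E2f2 differed by 0.17 (adjusted p = 0.719) and -0.08 (adjusted p = 0.912). E2f2, given in full after its values were seen, departed from the other members in replicate 1 of the libraries labelled Fgf10+/-. It read 10.07, 9.98, 10.09 and 10.10 in wild type and 9.62, 9.88, 10.52 and 9.89 in the other group, so that its lowest value was in replicate 1 and its highest in replicate 3. Markers of red blood cell precursors, in which E2F2 is known to act, had their lowest and highest list means in the same pair of libraries. The mean deviation of 8 erythroid markers was 0.30, -0.72, 0.23 and 0.37 in wild-type replicates 1 to 4 and -0.81, 0.08, 1.03 and -0.47 in the libraries labelled Fgf10+/-. The log2 of their summed signal ranged from 14.61 to 16.13 in wild type and from 14.59 to 16.33 in the other group. At an unadjusted p under 0.05, 0 of 8 were higher and 1 of 8 was lower, beside 4.74% and 6.29% of all genes. Single markers did not all follow the list mean. In replicates 1 and 3 of the libraries labelled Fgf10+/-, Alas2 read 8.31 and 13.65, but Klf1 read 2.68 and 2.40 and Tfrc 7.35 and 7.28. Hba-a1, Slc4a1, Epb42, Hemgn and Rhd were higher in replicate 3 than in replicate 1, as Alas2 was. Hba-a1, the brightest of the list, read 15.99 in replicate 3, the top of the scale. The part of these markers in the E2f2 values was not tested.

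The 3 genes that copy chromatin had a higher mean each, with a median of 0.20. Of these, 0 had an unadjusted p under 0.05, beside 11% of all genes in either direction. Uhrf1, which brings the maintenance DNA methylase to new strands, read 9.12, 9.10, 9.51 and 8.98 in wild type and 10.09, 9.49, 9.48 and 9.15 in the libraries labelled Fgf10+/-. Replicate 1 alone lay above wild type (difference 0.37, SE 0.21, adjusted p = 0.584), and the difference was 0.19 without it. A second Uhrf1 feature, near the floor with a wild-type mean of 2.89, differed by 0.74. Chaf1a and Chaf1b encode subunits of the chaperone CAF-1, which lays histones on copied DNA. Chaf1a read 7.07, 6.65, 7.41 and 7.23 in wild type and 7.68, 7.18, 7.24 and 7.07 in the other group (difference 0.20, adjusted p = 0.771). Chaf1b read 9.98, 10.04, 10.23 and 9.61 against 10.63, 9.80, 9.98 and 9.67, again with replicate 1 as the only library above wild type (difference 0.06, adjusted p = 0.954).

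Some members were measured more than once on each array. Of the 45 genes 11 had more than 1 feature, 23 features together, and in 5 of the 11 every feature had the same sign. The 6 with both signs were Cdc6, Gmnn, Mcm8, Pole, Rpa1 and Chaf1b. With the features of each gene averaged, the median difference was 0.20 and 37 members had a higher mean, since Cdc6, Mcm8 and Chaf1b changed sign. The dimmer members were also the least certain. The 8 members below the median gene signal had a median standard error of 0.31, against 0.16 for the other 37, whose median difference was 0.20 with 33 at a higher mean, beside 49.7% of all genes in that brighter range. Of those 37, 7 were higher at an unadjusted p under 0.05, beside 5.32% of the brighter genes.

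E2F factors are known to bind the promoters of many replication genes, and the promoters of 4 members are shown as examples of where the E2F motif lies. RefSeq promoter windows (GRCm38.p6, 250 bases before to 50 after the start) were matched by symbol for 37 of 45 members. The motif searched was any of TTTGGCGC, TTTCCCGC, TTTCGCGC or TTTGCCGC on either strand. It was found for 14 of the 37 members (37.8%), for 9 of 28 other replication factors (32.1%), for 1 of 25 mitosis genes (4%) and for 2.61% of the 27025 genes in the table. The pentamer CCAAT, bound by the factor NF-Y, was found on either strand for 23 of the 37 members (62.2%), 19 of the 25 mitosis genes (76%) and 41.1% of all genes. No CCAAT lies inside one of these E2F motifs, and 10 members held both. Below are the 200 bases upstream of the start for the 4 members with the smallest p that held the E2F motif, with every match in capitals, 5′ to 3′ on the strand of the gene. The Mcm5 stretch is chr8:75109309-75109508 (plus strand, where 2 matches that overlap begin 153 and 149 bases before the start, the second on the opposite strand), that of Orc1 is chr4:108579254-108579453 (plus strand, 27 bases before), that of Pola1 is chrX:93632156-93632355 (minus strand, 138 bases before) and that of Uhrf1 is chr17:56304113-56304312 (plus strand, 185 bases before).
Mcm5: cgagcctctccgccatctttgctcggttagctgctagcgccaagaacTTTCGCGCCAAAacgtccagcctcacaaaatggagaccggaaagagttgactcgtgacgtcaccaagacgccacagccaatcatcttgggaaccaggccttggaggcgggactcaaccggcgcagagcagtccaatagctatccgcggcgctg
Orc1: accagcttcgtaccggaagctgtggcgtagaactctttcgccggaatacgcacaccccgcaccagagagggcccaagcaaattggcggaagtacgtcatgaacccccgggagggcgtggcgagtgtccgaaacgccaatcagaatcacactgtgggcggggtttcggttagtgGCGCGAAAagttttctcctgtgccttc
Pola1: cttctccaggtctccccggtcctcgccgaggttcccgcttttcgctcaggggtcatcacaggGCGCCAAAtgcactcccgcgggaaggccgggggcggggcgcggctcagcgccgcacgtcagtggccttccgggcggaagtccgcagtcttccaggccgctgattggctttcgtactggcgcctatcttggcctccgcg
Uhrf1: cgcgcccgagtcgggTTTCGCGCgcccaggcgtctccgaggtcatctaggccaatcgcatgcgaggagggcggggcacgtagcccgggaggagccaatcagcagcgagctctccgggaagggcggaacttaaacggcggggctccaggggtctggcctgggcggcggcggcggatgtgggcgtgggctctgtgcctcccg

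The members with the motif did not have the larger differences. The 14 with it had a median log2 difference of 0.15, and 1 of them, Mcm5, was higher at an unadjusted p under 0.05. The 23 without it had a median of 0.24, and 6 of them, Rrm2, Rrm1, Mcm10, E2f8, Ccne1 and Dut, were higher. A match, or the lack of one, is a description of these letters in this window and no measure of E2F binding. No test was made of the difference.

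Other genes of DNA copying had a smaller median difference than the members. Of 34 further replication factors, 27 had a higher mean, with a median of 0.10. At an unadjusted p under 0.05, where 4.74% of all genes were higher and 6.29% lower, the counts were 3 higher and 0 lower. Those with the smallest p were Ticrr, which helps to load CDC45 (difference 0.65, SE 0.15, adjusted p = 0.192), and Pole2, the partner of POLE (0.55, adjusted p = 0.302). Of 12 genes of S phase chromatin, with a median of 0.17, the histone chaperone genes Asf1b (0.65, adjusted p = 0.182) and Nasp (0.48, adjusted p = 0.166) were higher at an unadjusted p under 0.05. Of 15 checkpoint and fork repair genes, with a median of 0.14, 3 were higher, among them Fanca (0.47) of the Fanconi pathway and the exonuclease gene Exo1 (0.55). Nucleotide synthesis outside the members had a median difference near 0. Its 17 genes had a median of 0.01, and at an unadjusted p under 0.05 there were 0 higher and 1 lower, Mthfd1, a folate enzyme of purine and thymidylate synthesis (-0.27, adjusted p = 0.371). Paics, of purine synthesis, had the next smallest p, with a difference of 0.19 (adjusted p = 0.567).

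The controls of S phase entry included higher values on both sides. Of 17 drivers of the G1 to S transition, with a median of 0.20, 6 were higher at an unadjusted p under 0.05. At that level 4.74% of all genes were higher and 6.29% lower. The 2 drivers with the smallest p were Fbxo5, the inhibitor of the anaphase-promoting complex that protects S phase (0.60, adjusted p = 0.168), and Ccna2, cyclin A2 (0.65, adjusted p = 0.199). Of 15 brakes, with a median of 0.09, 5 were higher and 0 lower, led by the CDK inhibitor genes Cdkn2c (0.56, adjusted p = 0.277) and Cdkn2d (0.32, adjusted p = 0.30). The others were Rbl2, Rbl1 and Lin9. The split into drivers and brakes is a rough one, since E2f7 (0.42), an atypical E2F like E2f8, was listed as a driver. The median of the brakes was 0.01 without wild-type replicate 4 and -0.02 with every feature on its own.

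**Figure D4:**
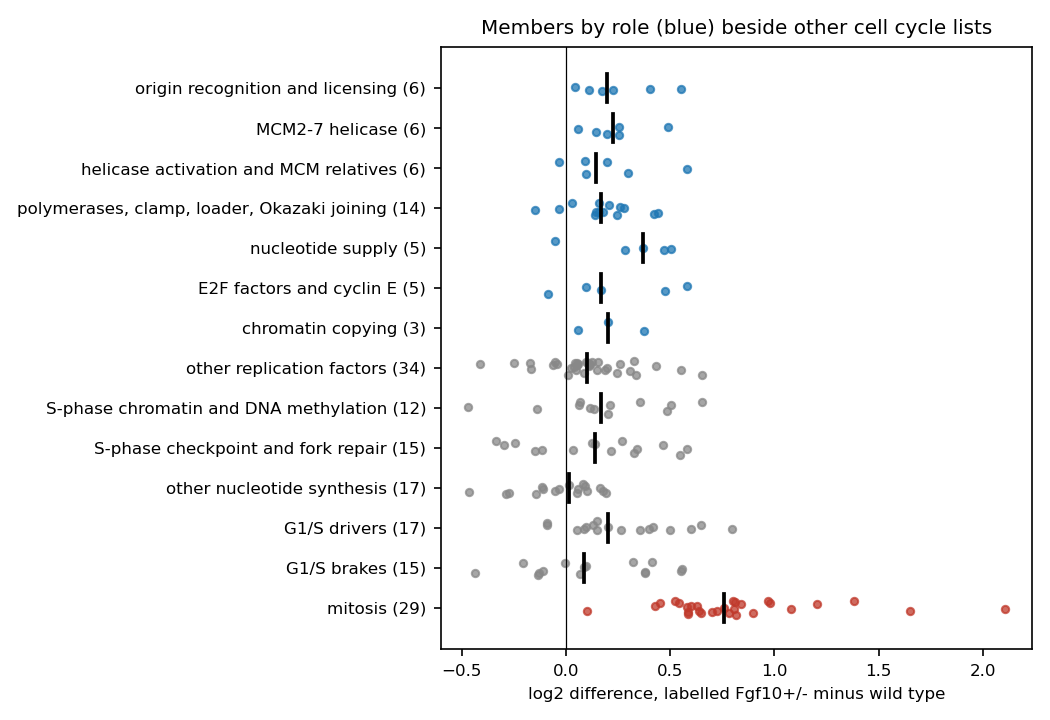
Each point is the log2 difference of 1 gene (libraries labelled Fgf10+/- minus wild type), black bars are list medians and the number of genes is in brackets. The 7 roles of the members (blue) have medians from 0.15 to 0.37, and the mitosis list (red) has a median of 0.76.

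Mitosis genes, most of which act after DNA has been copied, showed a larger difference, which was also more even over the libraries labelled Fgf10+/-. Over genes it ran from 0.10 to 2.11, where the members ran from -0.15 to 0.58. All 29 measured had a higher mean signal in the libraries labelled Fgf10+/-, with a median of 0.76 or 1.69-fold. At an unadjusted p under 0.05, 27 were higher, beside 4.74% of all genes. For 25 the groups did not overlap, beside 2.99% of all genes. Sgo2a, which protects centromeric cohesion (2.11, SE 0.22), and the checkpoint kinase gene Bub1 (1.08, SE 0.14) had the smallest p, each with an adjusted p of 0.0767. With the variance trend and robust settings 24 of the 29 passed an adjusted p of 0.05, and without genes below the 50th percentile of signal 19 of the 24 then left passed, where 3 and 0 replication genes did. Of all genes tested, 1.99% and 2.76% passed under these settings. The upper end of the 95% interval lay below 0.76 for 30 of the 45 replication genes. The pattern over libraries differed as well: measured from the wild-type means, the median mitosis gene lay 0.70, 0.76, 0.65 and 0.78 higher in replicates 1 to 4 of the libraries labelled Fgf10+/-, where the median replication gene lay at 0.52, 0.13, 0.21 and 0.01. In wild type the mitosis medians were -0.22, -0.14, 0.12 and 0.31. Replicate 4 of the libraries labelled Fgf10+/- thus had the highest mitosis median and the lowest replication median of its group. Without replicate 1 of that group the mitosis median was 0.73 and the replication median 0.09. These are descriptions over the same 8 arrays, and no test sets the lists against each other.

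**Figure D5:**
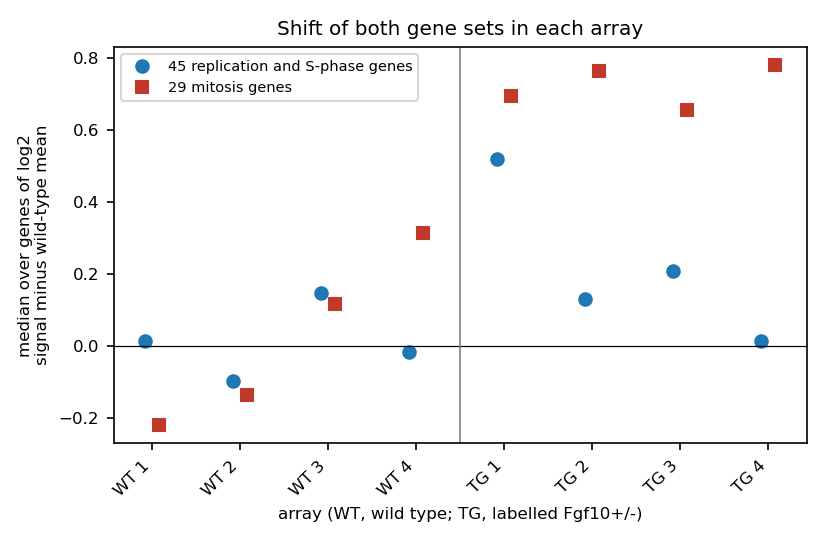
For each array, the point is the median over genes of the log2 signal minus the wild-type mean, for the 45 replication genes (blue circles) and 29 mitosis genes (red squares). The mitosis medians of the 4 libraries labelled Fgf10+/- sit between 0.65 and 0.78, and the replication medians between 0.01 and 0.52.

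Markers of other cell types are given beside these values because dividing cells of several kinds can carry S phase RNA. Thymocyte markers lay near the floor, with 7 of 9 below the median array feature of 3.47, a summed log2 signal of 7.61 to 8.00 in wild type and 7.71 to 8.19 in the other group, and 0 of 9 past an unadjusted p of 0.05. B cell markers had a summed log2 signal of 9.33 to 9.93 and 9.36 to 10.11, with 2 of 7 higher and 1 of 7 lower at that level. Among all genes 4.74% were higher and 6.29% lower at it. Granulocyte precursor markers varied within both groups, in the same order by replicate number, with replicate 1 highest and replicate 4 lowest in each. Their mean deviation was 0.66, -0.19, 0.16 and -0.87 in wild type and 0.71, -0.19, 0.38 and -0.66 in the libraries labelled Fgf10+/-, with a summed log2 signal of 12.09 to 14.20 and 12.35 to 14.87 and 0 of 9 past an unadjusted p of 0.05.

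Fibroblast markers had a positive and alveolar type 2 markers a negative median difference, though no marker passed the adjusted test. At an unadjusted p under 0.05, 4 of 8 fibroblast markers were higher (median 0.30, summed log2 signal 16.30 to 16.79 in wild type and 16.76 to 16.95 in the other group). Their mean deviation was -0.28, -0.17, -0.35 and 0.24 in wild-type replicates 1 to 4, so replicate 4 was the highest of all 8 arrays. In the libraries labelled Fgf10+/- it was 0.17, 0.15, 0.05 and 0.19. Among all genes 4.74% were higher and 6.29% lower at that p. Of 10 alveolar type 2 markers 9 were lower at that level (median -0.70, summed log2 signal 17.14 to 17.33 and 16.89 to 17.06). The remaining marker, Sftpc, read 15.98 or 15.99 in every array, at or next to the top of the scale, where a difference may not show. Among the other lung epithelial lists, 5 of 8 alveolar type 1 markers (median -0.30) and 5 of 8 club and ciliated markers (median -0.45) were lower at that level. Of 10 cardiac muscle markers 9 were lower (median -0.81, summed log2 signal 13.80 to 14.29 and 13.01 to 13.57). For 9 macrophage markers the counts were 0 higher and 3 lower (summed log2 signal 13.15 to 13.64 and 12.64 to 13.45). The part of any of these cell types in the replication values was not tested.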

How the data were processed

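Lung RNA of 8 pups was amplified (Low-Input QuickAmp) for single-colour arrays, per the labels' protocols. The authors' deposited table holds log2 signals of 62976 features, read as log2 from their range. Sorted columns differed by at most 0.0042, as after quantile normalization, which hides a shift shared by most genes. The submitters' processing notes name limma, with no version, and background correction is not stated.

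Features were named from the platform annotation (31465 with 1 symbol, 0 with several, 31511 unnamed), and symbols were updated by accession through a RefSeq table (29036 matched, 2933 changed). After 40 features with a blank were left out, 31425 stood for 20842 genes. The brightest feature stood for its gene. limma 3.58.1 in R 4.3.3 (group only, eBayes, two-sided, Benjamini-Hochberg over all genes, threshold 0.05) was the main test, tested on simulated data, beside exact permutation over 70 assignments, adjusted over all genes. In the simulation limma recovered 46 of 100 genes with a log2 change of 1 and 82 of 100 with a change of 2. Of its 138 calls 10 were false. Changes below 1, where all member differences lie, were not simulated. Intervals are limma's 95% ones. Figures were drawn with matplotlib 3.10.9.

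The members, the 7 pathway lists and the 14 marker lists were chosen with earlier results of these data known, so their directions are no independent evidence. By rule, full values are given for Fgf10, for the 2 smallest and the largest p in each role, and for the extreme differences, and each pathway list names its 2 genes with the smallest p. The submitters call the samples independent. Replicate numbers are not said to pair the arrays, so the replicate block was an alternative only. Alternatives were the feature summary, scaling, dim-gene filters, variance trend, array weights, the block and left-out arrays.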

Additional observations from a re-analysis of the deposited data

How the results depend on the processing

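Of 847 single-gene differences under 19 alternatives, 811 kept their direction and 36, over 16 of the 45 members, were reversed. Under the 3 other scalings the median of all genes lay at most at 0.02 and 7 members were higher at an unadjusted p under 0.05, as in the main test. The share of all genes higher at that level was 4.93% to 5.57%. The count of all genes past an adjusted p of 0.05, 0 in the main test, was 38 without genes below the 25th percentile of signal, 288 without those below the 50th, 3 with array weights and 414 with robust fitting and a variance trend. Only the trend setting took members past it, 3 of them, and it gave 13 members higher at an unadjusted p under 0.05, beside 5.27% of all genes. With each array left out in turn, the count of all genes past the adjusted threshold ran from 0 to 1. The median member difference then ran from 0.09 to 0.25. The count of members higher at an unadjusted p under 0.05 ran from 4 to 10, beside 3.82% to 5.51% of all genes. That of members without overlap ran from 4 to 11, beside 4.15% to 6.00% of all genes. With 2 arrays left out together, wild-type replicate 4 and replicate 3 of the Fgf10+/- label, 8 members did not overlap, beside 8.71% of all genes. Averaging a gene's features reversed Cdc6 (-0.12), Mcm8 (-0.22) and Chaf1b (-0.010). Array weights reversed Orc2 (-0.10), Cdt1 (-0.040), Rfc2 (-0.012) and Chaf1b (-0.063). With arrays left out, singly or as that pair, reversals came within these ranges: Orc2 -0.21 to 0.40, Orc6 -4.7e-05 to 0.20, Cdt1 -0.13 to 0.16, Mcm7 -0.021 to 0.16, Mcm8 -0.073 to 0.41, Cdc45 -0.035 to 0.60, Gins1 -0.15 to 0.033, Gins2 -0.018 to 0.23, Cdc7 -0.0057 to 0.65, Rfc2 -0.047 to 0.12, Rpa1 -0.067 to 0.012, Tyms -0.21 to 0.14, E2f2 -0.26 to 0.035, Ccne2 -0.052 to 0.26 and Chaf1b -0.15 to 0.18. The cause was not tested. Among list medians, added after the data were seen, that of the G1 to S brakes was -0.02 with every feature on its own and 0.01 without wild-type replicate 4, alone or with the other array of the pair, and that of the drivers was 0.30 without that pair. Deviations from the group means correlated at 0.113, 0.0226, 0.0178 and 0.0776 between arrays of the same replicate number. Between arrays of unlike numbers the correlations ran from -0.155 to 0.0695. These values do not settle whether the arrays are paired. The replicate block gave 0 members past the adjusted threshold and a median of 0.20. With it 7 members were higher at an unadjusted p under 0.05 (5.22% of all genes) and 4 did not overlap (2.99% of all genes). Signal limits the 8 dimmer members most.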
